A study of Bos taurus with 11 samples.

Results

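The miR-200 family was followed across the mammary gland miRNomes of lactating dairy cows. Its 5 bovine members, bta-miR-141, bta-miR-200c, bta-miR-200a, bta-miR-200b and bta-miR-429, were taken by name as the family, and the choice used no threshold on their values. All 5 were found among the 796 miRNAs of the count table and among the 550 tested for a breed difference. Small RNA was sequenced from mammary gland biopsies of 5 Holstein and 6 Montbéliarde cows, with 1 library per cow, to compare the breeds. Per the methods of the study, all cows were in mid-lactation and received the same diet, and the biopsy was taken from the rear udder. The groups are defined by breed, and no treatment is given for either. The libraries carry the tags CNLX1, CNLX3, CNLX5, CNLX7 and CNLX9 in Holstein cows, and CNLX13, CNLX15, CNLX17, CNLX19, CNLX21 and CNLX23 in Montbéliarde cows. The tag numbers follow the breed, so an effect of the order of preparation, if the tags reflect one, cannot be told apart from breed. Counted reads ranged from 6087865 to 16808976 per library. The mean was 11795400 ± 3516470 in Holstein (SD, n = 5) and 8916420 ± 1977720 in Montbéliarde libraries (SD, n = 6). The study also reports more adapter reads and a lower output rate after cleaning for Montbéliarde. Depth and these features of the libraries thus partly follow breed.

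The miR-200 family is known as a marker of epithelial cells. Its members repress ZEB1 and ZEB2, the transcription factors that switch off E-cadherin during the epithelial to mesenchymal transition, and ZEB1 and ZEB2 repress the miRNA genes in turn. In the mammary gland, whose milk is made by a secretory epithelium embedded in stroma and fat, the family is known for keeping epithelial identity. The seeds of miR-200b, miR-200c and miR-429 are known to be the same, and those of miR-141 and miR-200a differ from it at a single base.

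The family comes from 2 genomic clusters. In the RefSeq annotation of the assembly ARS-UCD2.0, MIR141 and MIR200C lie next to each other between the protein-coding genes PHB2 and PTPN6. MIR429, MIR200A and MIR200B follow each other between TTLL10 and C16H1orf159. The counts were made on another assembly, so coordinates are not given.

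The family took 4.06% ± 0.50 of the counted reads in Holstein libraries (SD, n = 5) and 2.60% ± 1.13 in Montbéliarde libraries (SD, n = 6). In Holstein libraries the share was 4.64%, 4.14%, 3.43%, 4.42% and 3.68% in the order of the tags. In Montbéliarde libraries it ran from 1.41% in CNLX15 (Wilson 95% confidence interval 1.40 to 1.41%) over a median of 2.45% to 4.44% in CNLX13 (4.42 to 4.45%). The intervals cover counting error only. In 5 of the 6 Montbéliarde libraries the share was below every Holstein library, and CNLX13 lay within the Holstein range. The share was not tested, since it is a sum over the members. In bulk tissue, fewer epithelial cells and less of these miRNAs per cell cannot be told apart.

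miR-141 made up most of the family in every library, with 75.8% ± 5.33 of the family's reads (SD, n = 11) and a lowest value of 65.3% in CNLX19. Ordered by read count, the members ran miR-141, miR-200c, then miR-200a and miR-200b, then miR-429 in 11 of 11 libraries. miR-200a and miR-200b could not be ordered. The ratio of their counts was 1.02 ± 0.12 (SD, n = 11), and miR-200a was the higher in 6 of 11 libraries. Among all miRNAs of a library, miR-141 ranked between 7 and 15, miR-200c between 22 and 52, miR-200a between 41 and 65, miR-200b between 45 and 63, and miR-429 between 68 and 96. Mature miRNAs are of nearly equal length, but ligation favours some of them during library preparation, so these are orders of read counts and not of molar amounts.

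**Figure D1:**
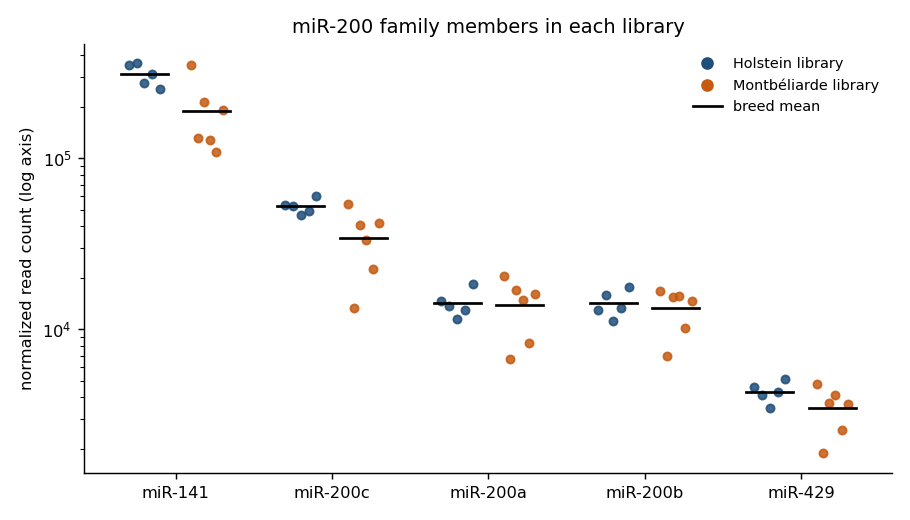
Normalized read counts of the 5 members on a log axis, one point per library and a black line at the breed mean (5 Holstein and 6 Montbéliarde libraries). For miR-141 and miR-200c, 5 of 6 Montbéliarde points lie below every Holstein point, while for miR-200a, miR-200b and miR-429 this holds for 2 of 6.

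The first comparison asked which members differed between the breeds. The log2 fold change of all 5 was below 0 (Montbéliarde over Holstein), as was that of 262 of all 550 miRNAs tested. None of the 5 passed the test. miR-141 and miR-200c, of the same cluster, had the largest differences of the 5. With edgeR's quasi-likelihood test, 0 of 5 members had an adjusted p of at most 0.05, against 2 of all 550 miRNAs tested, or 0.364%. With DESeq2 and with limma voom, 0 of 5 members passed as well. At an unadjusted p of at most 0.05, 2 of 5 members were lower in Montbéliarde libraries, against 6.55% of all miRNAs tested. The median log2 fold change was −0.33 over the 5 members and 0.03 over all 550. In normalized counts, the breeds did not overlap for 0 of 5 members and for 2.0% of all miRNAs tested.

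miR-141, the most abundant member, is known to repress ZEB1 and ZEB2. Its normalized counts, which are counts divided by the size factor of the library, were 353607, 359025, 274912, 311214 and 255751 in the Holstein libraries in the order of the tags. In Montbéliarde libraries they ran from 108911 in CNLX21 over a median of 162184 to 353760 in CNLX13. So 5 of 6 Montbéliarde libraries were below the lowest Holstein library, and CNLX13 was above 4 of the 5. The means were 310902 ± 46034 (SD, n = 5) and 188093 ± 90722 (SD, n = 6). The log2 fold change was −0.74 (SE 0.26, 95% confidence interval −1.28 to −0.19) with an adjusted p of 0.217 in edgeR. The exact permutation test of the breed means on the log2 scale, two-sided and not adjusted, gave p = 0.0260. The call depended on CNLX13: without it, the log2 fold change was −1.02 and the adjusted p in edgeR was 0.0181.

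miR-200c, the cluster partner of miR-141 and the member best known for repression of ZEB1, had normalized counts of 53178, 52741, 46933, 49392 and 60009 in the Holstein libraries. In Montbéliarde libraries it ran from 13406 in CNLX15 over a median of 37197 to 54258 in CNLX13. Again 5 of 6 Montbéliarde libraries were below every Holstein library. The means were 52451 ± 4938 (SD, n = 5) and 34374 ± 14632 (SD, n = 6). The log2 fold change was −0.61 (SE 0.27, 95% confidence interval −1.19 to −0.04) with an adjusted p of 0.322 in edgeR. The exact permutation test gave p = 0.0368. Without CNLX15 the log2 fold change was −0.37, with an adjusted p of 0.366 in edgeR.

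The members of the other cluster, miR-200a, miR-200b and miR-429, differed less between the breeds. miR-200a, which has the seed of miR-141, had normalized counts of 14598, 13748, 11416, 13016 and 18384 in Holstein libraries. In Montbéliarde libraries it ran from 6739 in CNLX15 over a median of 15513 to 20563 in CNLX13. The Montbéliarde range thus held the whole Holstein range. The log2 fold change was −0.04 (SE 0.25, 95% confidence interval −0.57 to 0.50), with an adjusted p of 0.975 in edgeR and p = 0.686 in the exact permutation test. The sign of this change turned with the scaling, to 0.01 with upper quartile normalization.

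miR-200b, which has the seed of miR-200c, had normalized counts of 12993, 15891, 11190, 13385 and 17560 in Holstein libraries. In Montbéliarde libraries it ran from 6935 in CNLX15 over a median of 14970 to 16837 in CNLX13. Only CNLX15 and CNLX21 were below the Holstein libraries. The log2 fold change was −0.10 (SE 0.22, 95% confidence interval −0.56 to 0.36), with an adjusted p of 0.876 in edgeR and p = 0.608 in the exact permutation test.

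miR-429, the least abundant member, had normalized counts of 4612, 4104, 3479, 4306 and 5120 in Holstein libraries. In Montbéliarde libraries it ran from 1878 in CNLX15 over a median of 3681 to 4757 in CNLX13. As for miR-200a and miR-200b, CNLX15 and CNLX21 were the libraries below the Holstein range. The log2 fold change was −0.33 (SE 0.22, 95% confidence interval −0.79 to 0.14), with an adjusted p of 0.491 in edgeR and p = 0.152 in the exact permutation test. Without CNLX15 it was −0.13, and without CNLX21 it was −0.21. The smallest p this test can give with 5 and 6 libraries is 0.00216.

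**Figure D2:**
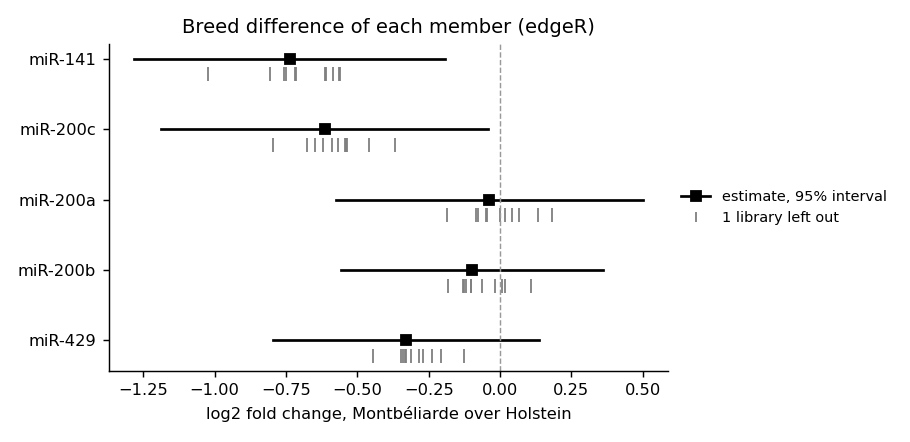
Log2 fold change of each member, Montbéliarde over Holstein, with its 95% confidence interval from edgeR (square and line), and below it the estimates with 1 library left out (grey ticks). The intervals of miR-141 and miR-200c lie below 0 before adjustment, from −1.28 to −0.19 and from −1.19 to −0.04, and those of the other members include 0.

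The second comparison asked whether the 2 clusters kept the same proportion in both breeds. It was made within each library, where depth and scaling cancel. The summed counts of miR-200c and miR-141 over those of miR-200a, miR-200b and miR-429 were 12.6, 12.2, 12.3, 11.7 and 7.69 in Holstein libraries in the order of the tags. In Montbéliarde libraries the ratio was 9.68, 9.32, 7.06, 4.67, 6.26 and 6.82. The breeds overlapped through CNLX9 alone, whose ratio of 7.69 was lower than that of 2 Montbéliarde libraries. On the log2 scale the ratio was 3.48 ± 0.30 in Holstein (SD, n = 5) and 2.83 ± 0.39 in Montbéliarde libraries (SD, n = 6), a difference of −0.65, larger than either SD. As a sum over members, it was not tested.

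The summed normalized counts of each cluster show where the proportion moved. Those of miR-200c and miR-141 were 363352 ± 45347 in Holstein (SD, n = 5) and 222467 ± 103492 in Montbéliarde libraries (SD, n = 6). Those of miR-200a, miR-200b and miR-429 were 32760 ± 5454 and 30621 ± 10116. The breed means thus lay further apart in the miR-200c/miR-141 cluster.

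Of the 10 ratios between single members, 3 did not overlap between the breeds, against 4.41% of all pairs of miRNAs with a mean normalized count of at least 100. All 3 set miR-200c against a member of the other cluster, so they share miR-200c. miR-200c over miR-200a was 3.64, 3.84, 4.11, 3.79 and 3.26 in Holstein libraries, and 2.64, 1.99, 2.42, 2.25, 2.72 and 2.58 in Montbéliarde libraries. Every Holstein cow was above every Montbéliarde cow, CNLX13 included, which had the highest levels of both miRNAs in its breed. miR-200c over miR-200b lay between 3.32 and 4.19 in Holstein libraries and between 1.93 and 3.22 in Montbéliarde libraries. For miR-200c over miR-429 the breeds were barely apart, with a lowest Holstein ratio of 11.47 and a highest Montbéliarde ratio of 11.45.

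The ratios that miR-141 made with the other cluster were lower on average in Montbéliarde libraries, but overlapped. miR-141 over miR-200a was 22.4 ± 4.85 (SD, n = 5) and 13.8 ± 3.91 (SD, n = 6), with CNLX9 at 13.9 within the Montbéliarde range. Inside the miR-200c/miR-141 cluster, miR-141 over miR-200c was 5.98 ± 1.03 and 5.81 ± 2.15, and its highest value, 9.81, was that of CNLX15. Grouped by seed in place of cluster, miR-141 and miR-200a over the other members gave 4.62 ± 0.77 in Holstein (SD, n = 5) and 4.08 ± 1.28 in Montbéliarde libraries (SD, n = 6), a difference smaller than the spread between cows. Because miR-141 and miR-200a, and likewise miR-200b and miR-200c, have near-identical sequences, reads could have been divided between them. How reads that match several miRNAs were counted is not given in the sources used here. No member was part of a pair of miRNAs whose counts stood in a constant ratio over all libraries (within 0.05%).

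**Figure D3:**
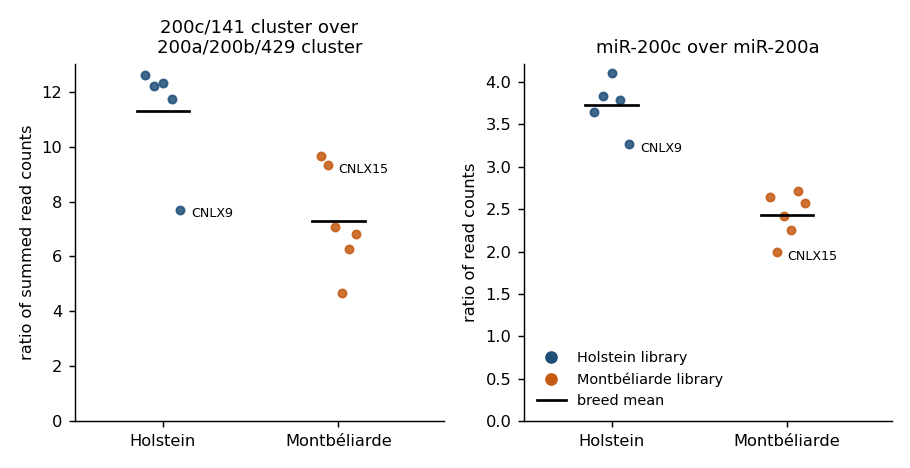
Ratio of the summed counts of the miR-200c/miR-141 cluster to those of the miR-200a/miR-200b/miR-429 cluster (left) and ratio of miR-200c to miR-200a counts (right), one point per library with the breed mean as a black line. On the left the breeds overlap through CNLX9 at 7.69; on the right every Holstein library, from 3.26 to 4.11, lies above every Montbéliarde library, from 1.99 to 2.72.

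The third comparison asked how the members varied together from cow to cow. The SD of log2 normalized counts was between 0.13 and 0.26 for the 5 members in Holstein libraries and between 0.49 and 0.73 in Montbéliarde libraries. A wider spread in Montbéliarde libraries was not limited to the family: it was found for 100 of the 114 miRNAs with a mean normalized count of at least 1000, whose median SD was 0.20 and 0.40. CNLX15 and CNLX21 were below the mean of the 11 libraries for all 5 members, by 1.56 for miR-200c and 0.77 for miR-141 in CNLX15 on the log2 scale. CNLX3, CNLX9 and CNLX13 were above it for all 5. In CNLX19, miR-141 was lower than the mean (−0.81) and miR-200c less so (−0.24). There, miR-200a, miR-200b and miR-429 were above it (0.15, 0.24 and 0.14).

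**Figure D4:**
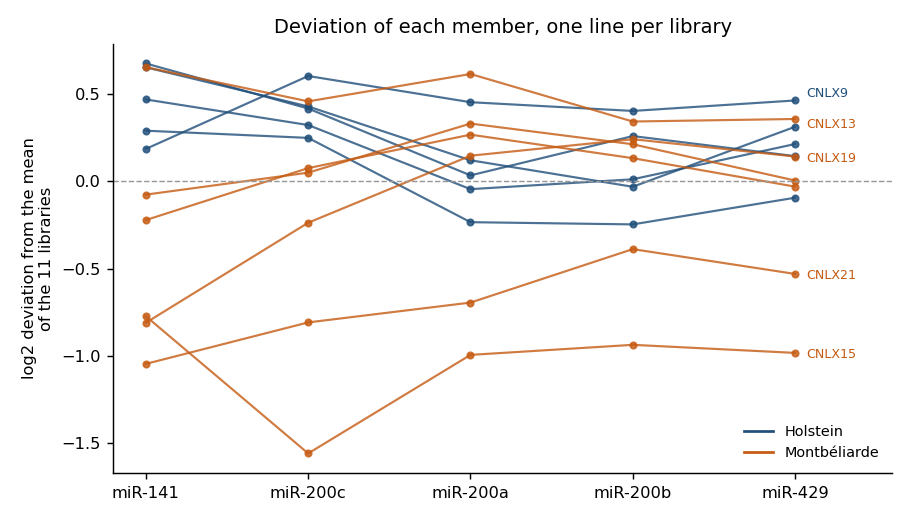
Deviation of each member from its mean over the 11 libraries, in log2 normalized counts, with one line per library coloured by breed. CNLX15 and CNLX21 lie below 0 for all 5 members, CNLX13 lies above 0 for all 5, and CNLX19 rises from −0.81 for miR-141 to 0.24 for miR-200b.

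Over the 11 libraries, 8 of the 10 pairs of members were correlated at an adjusted p of at most 0.05 (permutation test with 100000 resamples, two-sided, adjusted over the 10 pairs) by Pearson's r, and 5 of 10 by Spearman's rho. The 4 pairs inside a cluster passed by both measures, while of the 6 pairs across clusters 4 passed by r and 1 by rho. Pearson's r was between 0.82 and 0.94 for the 4 pairs inside a cluster, and Spearman's rho between 0.71 and 0.85. For the 6 pairs across clusters, r was between 0.51 and 0.95, and rho between 0.29 and 0.90. The closest pairs were miR-200c with miR-429 (r = 0.95, permutation p = 0.00037, adjusted p = 0.00167; rho = 0.90, p = 0.00048, adjusted p = 0.0048) and miR-200a with miR-200b (r = 0.94, permutation p = 4e-05, adjusted p = 0.0004; rho = 0.85, p = 0.00149, adjusted p = 0.00745).

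miR-141 with miR-200a (r = 0.58, permutation p = 0.0591, adjusted p = 0.0657; rho = 0.29, p = 0.384, adjusted p = 0.384) and with miR-200b (r = 0.51, permutation p = 0.106, adjusted p = 0.106; rho = 0.42, p = 0.203, adjusted p = 0.225) missed the threshold. miR-141 with miR-200c gave r = 0.82 (permutation p = 0.00092, adjusted p = 0.00184) and rho = 0.80 (p = 0.00492, adjusted p = 0.0164), and r was 0.85 without CNLX19 and CNLX21, the libraries farthest from the median. Over both breeds together, r of miR-200c with miR-200a and with miR-200b fell from 0.85 to 0.20 and to 0.12 without CNLX15 and CNLX21. Without the same libraries, r also fell from 0.90 to 0.55 for miR-200a with miR-429, from 0.91 to 0.56 for miR-200b with miR-429 and from 0.95 to 0.64 for miR-200c with miR-429, and it was 0.82 for miR-200a with miR-200b. With breed means subtracted and all 11 libraries kept, r was between 0.71 and 0.96 inside clusters and between 0.53 and 0.96 across them. On this measure, miR-200c had r = 0.96 with miR-200a and 0.93 with miR-200b. The values without CNLX15 and CNLX21 did not have breed means subtracted, so they do not show whether these relations held within the breeds. Within Montbéliarde libraries alone, miR-200c with miR-200a had r = 0.98 (n = 6), which also includes CNLX15 and CNLX21. In Holstein libraries, n = 5 was too few for a correlation.

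Other miRNAs of epithelial cells were set beside the family. Of 7 names on this list, miR-203 was not analysed here and 6 were tested, with 0 of 6 passing at an adjusted p of 0.05 in edgeR and 0 of 6 at an unadjusted p of 0.05. Their summed normalized counts lay between 62972 and 91519 in Holstein libraries and between 58329 and 96258 in Montbéliarde libraries, so the breeds overlapped throughout. Their median log2 fold change was −0.03, against 0.03 over all miRNAs tested. Of the 6, 3 were above 0 and 3 below, against 52.4% above 0 over all miRNAs tested, so the sum joins miRNAs of opposite direction. miR-205, which also represses ZEB1 and ZEB2, was 18415 ± 2728 in Holstein (SD, n = 5) and 23981 ± 5385 in Montbéliarde libraries (SD, n = 6), with an adjusted p of 0.348 in edgeR. miR-182 was 25973 ± 3923 and 26974 ± 2842. miR-375, a miRNA of secretory and endocrine cells, was 23453 ± 9680 and 18892 ± 10995 (log2 fold change −0.31, adjusted p = 0.789 in edgeR). It ranged widely, from 4967 to 39865 over the 11 libraries. The library with the highest sum of this list, CNLX19, had one of the lower family sums, 196403.

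Of the miRNAs known to restrain the epithelial to mesenchymal transition, among them miR-101 and the miR-34 group, 0 of 5 tested passed in edgeR. At an unadjusted p of 0.05, 0 of 5 passed, and the median log2 fold change was 0.07. The 5 include miR-205, which is also on the epithelial list above, and miR-203 was not analysed here. Of the miRNAs known to promote the transition, 0 of 7 passed in edgeR. Of these 7, 5 had a log2 fold change above 0 (median 0.49), and 2 were higher in Montbéliarde libraries at an unadjusted p of 0.05. The 7 include both arms of miR-21, and miR-155, which is also on the leukocyte list below. Over all miRNAs tested, 52.4% had a log2 fold change above 0, and 7.64% were higher in Montbéliarde libraries at an unadjusted p of 0.05. miR-221, among the 2 higher ones, was 1476 ± 66.9 in Holstein (SD, n = 5) and 2307 ± 1197 in Montbéliarde libraries (SD, n = 6), with an adjusted p of 0.309 in edgeR. The other had low counts, 17.9 ± 11.2 and 49.6 ± 53.0. miR-10b (840943 ± 303197 and 792758 ± 261939) and miR-21-5p (239401 ± 18627 and 238563 ± 87310) differed between the breeds by less than the SD.

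Markers of stroma and smooth muscle were higher, as a sum, in the Montbéliarde libraries than in the Holstein libraries, with overlap. Of their 6 miRNAs, 0 passed in edgeR, 5 had a log2 fold change above 0 (median 0.56), and 2 were higher in Montbéliarde libraries at an unadjusted p of 0.05, against the same 52.4% and 7.64% of all miRNAs tested. The 6 include both arms of miR-199a, each above 0. Their summed normalized counts lay between 1513729 and 2305715 in Holstein libraries and between 1928358 and 3870328 in Montbéliarde libraries. Nearly all of the sum was miR-143, a miRNA of smooth muscle and fibroblasts (1838350 ± 288747 and 2757170 ± 726052, adjusted p = 0.171 in edgeR). miR-145 went the other way (3894 ± 858 and 3231 ± 1153, log2 fold change −0.27), and miR-199b had a log2 fold change of 0.06. The highest stromal sum was that of CNLX15, where the family's share of reads was lowest. Its family sum, 160517, was above only that of CNLX21 (152474). Over the 11 libraries of both breeds together, r between the log2 of the stromal sum and that of the family sum was −0.73. It was also −0.73 for miR-143 alone. For the others of the list it lay between −0.72 (miR-199a-3p) and −0.23 (miR-145). Libraries with similar stromal sums could differ in the family: CNLX19 had 2329913 with a family sum of 196403, and CNLX3 2305715 with 445509. The log2 of the stromal sum, and so mainly that of miR-143, was used as a covariate in edgeR, chosen after the data were seen. The log2 fold change of miR-141 was then −0.37 (adjusted p = 0.917) and that of miR-200c −0.04 (adjusted p = 0.999). Those of miR-200a, miR-200b and miR-429 were 0.49, 0.26 and 0.15. With the epithelial sum as a covariate, also chosen after the data were seen, miR-141 was at −0.72 and miR-200c at −0.65. With library size as a covariate, which was planned, miR-141 was at −1.07 (adjusted p = 0.119 in edgeR) and miR-200c at −0.86 (adjusted p = 0.176 in edgeR). The part of tissue composition in the breed differences was not tested.

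Markers of blood and vessels were also followed. In edgeR, 0 of 5 leukocyte, 0 of 2 endothelial, 0 of 3 erythroid and 0 of 4 skeletal muscle miRNAs passed, and none of them reached an unadjusted p of 0.05. The log2 fold change was above 0 for 5 of 5 leukocyte miRNAs (median 0.40) and 3 of 3 erythroid ones. It was above 0 for 3 of 4 skeletal muscle and 0 of 2 endothelial miRNAs, against 52.4% of all tested. The leukocyte sum lay between 18031 and 26952 in Holstein libraries and between 17229 and 39422 in Montbéliarde libraries, with its highest value in CNLX15. Its r with the family sum was −0.29, and that of its single miRNAs ran from −0.72 (miR-155) to −0.22 (miR-142-5p). DESeq2 and limma voom likewise called 0 miRNAs of any of these marker lists. The sums of the skeletal muscle list, of which miR-206 was not analysed here, from 519 to 1849, were far below those of the family in all libraries.

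**Figure D5:**
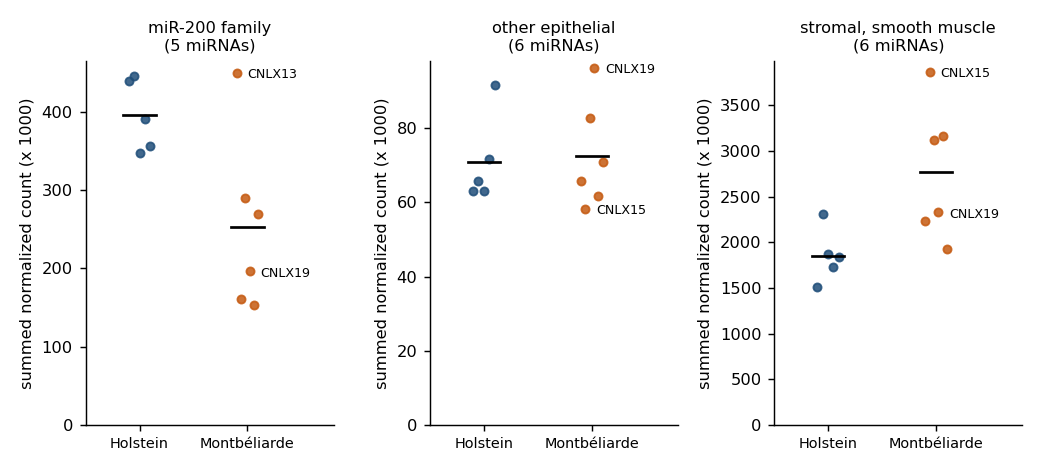
Summed normalized counts, in units of 1000 counts, of the miR-200 family, of 6 other epithelial miRNAs and of 6 stromal and smooth muscle miRNAs, one point per library (Holstein blue, Montbéliarde orange) with the breed mean as a black line. The family is lower and the stromal sum higher in most Montbéliarde libraries, while the other epithelial miRNAs overlap, with CNLX19 at the top. The stromal sum is nearly all miR-143.

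Among the 209 other miRNAs with a mean normalized count of at least 100, those whose levels ran most like the family sum over the 11 libraries were miR-30a-5p (r = 0.94), miR-29c (0.92), miR-186 (0.90), miR-484 (0.86) and miR-30d (0.86). Those that ran least like it were let-7c (−0.91), miR-140 (−0.87), miR-379 (−0.86), miR-93 (−0.84) and miR-221 (−0.82). These values describe libraries that share depth scaling and breed, and they are weighted towards miR-141, which makes up most of the sum. Without CNLX15 they were 0.92, 0.91, 0.87, 0.81 and 0.83 for the first group. miR-186 was the one of these 10 to pass the breed test, with a log2 fold change of −0.77 and an adjusted p of 0.0370 in edgeR, and its breeds did not overlap (64059 to 76631 in Holstein and 31067 to 53705 in Montbéliarde libraries).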

How the data were processed

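Small RNA libraries were made from total RNA with the TruSeq Small RNA kit, 1 per cow. The authors trimmed and size-selected the reads, quantified and annotated them with ncPRO-seq, aligned them to the bovine genome and miRBase with miRDeep2, and deposited the unscaled read counts of each mature miRNA in each library. Their 11 columns of normalized counts, the breed means and the columns of their own DESeq2 comparison (fold changes and p-values) were not used. The submitters' processing notes name bcl2fastq 2.17.1.14 and DESeq2 1.18.1.

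The breed test was run in edgeR 4.0.16 (R 4.3.3; TMM, robust glmQLFit and glmQLFTest) for 550 miRNAs that reached 10 counts in the sum of all 11 libraries, with Benjamini-Hochberg adjustment over all of them and a threshold of 0.05. DESeq2 1.42.0, whose size factors gave the normalized counts, and limma 3.58.1 were alternatives, beside other normalizations, filters, covariates and each library left out in turn. Single members were also compared with exact permutation tests of the absolute difference of means of log2(normalized count + 1), over all 462 arrangements. Correlations used the same scale and 100000 permutations. The tests were tested on simulated data. Plots were drawn with matplotlib 3.10.9.

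Depth was 6087865 to 16808976 counted reads per library. A count of 0 would allow up to 1.78e-05 to 4.93e-05% of reads (3 counts), so the spread between cows, not depth, limits the members' values. The members were set by family name and not by a measured value, but they, the lists and the named miRNAs were chosen with earlier results of these data known. Named were the 5 members, abundant list miRNAs, and the 5 miRNAs most and the 5 least like the family sum. Seed groups are background knowledge; no sequences are printed. Genes and neighbours come from RefSeq for ARS-UCD2.0.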

Additional observations from a re-analysis of the deposited data

Results flagged for a closer look

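The ratio of the miR-200c/miR-141 cluster to the miR-200a/miR-200b/miR-429 cluster in the Holstein library CNLX9 was 7.69, far from the other 4 Holstein libraries (11.7 to 12.6). Its gap to the nearest of them took up 0.82 of the range of the 5, beyond Dixon's 95% critical value. CNLX9 had the lowest miR-141 of the Holstein libraries (255751 normalized counts) and the highest miR-200c, miR-200a, miR-200b and miR-429 (60009, 18384, 17560 and 5120). The levels, the family share and the ratios were checked in each breed, 16 checks in all, and chance flags about 1 in 20.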

How the results depend on the processing

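No member passed in edgeR for 10 of the 11 libraries left out in turn. None passed under any of the 11 other settings, which include DESeq2 and limma voom. The exception was without CNLX13, where 1 member, miR-141, passed (−1.02). Without 1 library, the number of members called ranged from 0 to 1, and the log2 fold change from −1.02 to −0.56 for miR-141, from −0.80 to −0.37 for miR-200c, from −0.18 to 0.18 for miR-200a, from −0.18 to 0.11 for miR-200b and from −0.45 to −0.13 for miR-429. miR-200a turned to 0.0146 with upper quartile normalization and to 0.0418 on miRNAs with a mean normalized count of at least 100. The stromal sum, nearly all miR-143, was also a covariate, chosen after the data were seen. With it, miR-200a was at 0.49, miR-200b at 0.26 and miR-429 at 0.15. With library size as a covariate, which was planned, they were at −0.33, −0.29 and −0.53, and miR-141 and miR-200c were at −1.07 and −0.86. The causes were not tested. The difference of mean log2 levels in the exact test ranged from −0.25 to 0.0672 for miR-200a and from −0.23 to 0.0289 for miR-200b without 1 library. Its p for miR-200c was above 0.05 without any one Holstein library (0.0619 to 0.0857), and that for miR-141 without CNLX1 (0.0524) or CNLX3 (0.0571). The cluster ratio, the family share and the seed ratio kept their direction in all settings tried, with cluster log2 differences from −0.79 to −0.53. Between 6 and 10 member pairs were correlated without 1 library, the 6 without CNLX15. Over all miRNAs, edgeR called 2 and DESeq2 20, and the other settings 0 to 6. No paired analysis was possible because the breeds are different cows, and the labels give no number that ties a Holstein to a Montbéliarde library. The 11 cows limit the precision more than depth does.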
